A study of Homo sapiens with 2 samples.

Results

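The ATF1 peaks listed under antisense RNA genes were 184 of the 15064 peaks with a position in the deposited table (1.22%, interval 1.05 to 1.41%). They were chosen by name alone: the assigned gene symbol ended in -AS or in -AS and a number. Each peak carried 1 gene name and each name occurred once, so the 184 peaks carried 184 antisense gene names. RefSeq now gives 10 of these names to a symbol that is neither the deposited one nor that of a divergent transcript, such as CUTALP for PSMD5-AS1 and the protein-coding SMIM35 for TMPRSS4-AS1. The series held 1 ChIP library from HCT116 cells, a human colon adenocarcinoma line that was given ATF1 with a 3xFlag tag and precipitated with an antibody to that tag, and 1 input DNA library without antibody, which was not analysed here. Both came from the same line in serum-containing medium, and no cells without the tagged protein were analysed here. Neither library had a replicate, so every value below describes 1 library. Intervals are exact 95% intervals, Clopper-Pearson for shares of peaks and Poisson for the tags of 1 peak, and cover counting error only. The total number of reads was unknown. The listed peaks held 3272654 tags, which is not the depth of the library.

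Antisense RNA genes are transcribed from the strand opposite to a named partner, here called the sense gene. Many begin close to the start of that partner and run away from it, so that a single promoter region serves both transcripts. Others begin inside or beyond the partner and overlap it. ATF1 belongs to the CREB family of basic leucine zipper proteins and binds the cAMP response element (CRE) TGACGTCA and, more weakly, its shorter form TGACG. It is activated by phosphorylation downstream of cAMP and growth signals.

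Start windows, from 250 bases before to 50 bases after the annotated start, were taken from RefSeq on GRCh38.p14 and matched 145 of the 184 antisense genes. All windows are written 5′ to 3′ in the direction of the antisense transcript, and motifs were searched on both strands. The full CRE occurred in 3 of the 91 windows that a peak of their own gene overlapped. These 3 are shown because their peaks were all among the 12 with the highest fold enrichment, and capitals mark TGACGTCA.
LIPE-AS1, chr19:42396898-42397197, plus strand: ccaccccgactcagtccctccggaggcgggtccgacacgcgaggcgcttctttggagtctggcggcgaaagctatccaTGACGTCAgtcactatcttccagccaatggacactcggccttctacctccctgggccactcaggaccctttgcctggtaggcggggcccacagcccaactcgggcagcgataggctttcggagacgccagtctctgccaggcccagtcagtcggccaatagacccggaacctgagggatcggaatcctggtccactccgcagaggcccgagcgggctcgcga
SSSCA1-AS1, chr11:65570364-65570663, minus strand: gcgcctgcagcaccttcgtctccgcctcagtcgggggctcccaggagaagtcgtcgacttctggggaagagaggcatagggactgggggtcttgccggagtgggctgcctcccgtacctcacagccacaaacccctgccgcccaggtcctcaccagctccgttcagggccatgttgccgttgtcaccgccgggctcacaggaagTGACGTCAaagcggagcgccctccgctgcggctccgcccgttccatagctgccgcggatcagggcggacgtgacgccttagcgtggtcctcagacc
MAPKAPK5-AS1, chr12:111841881-111842180, minus strand: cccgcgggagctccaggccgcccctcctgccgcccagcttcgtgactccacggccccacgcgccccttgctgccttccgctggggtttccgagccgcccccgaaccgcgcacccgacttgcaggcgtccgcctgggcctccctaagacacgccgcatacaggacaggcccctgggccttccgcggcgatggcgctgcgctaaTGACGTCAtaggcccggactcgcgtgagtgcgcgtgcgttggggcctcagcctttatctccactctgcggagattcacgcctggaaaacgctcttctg
The first base of the CRE lay 172 bases before the start of LIPE-AS1, 46 before that of SSSCA1-AS1 and 48 before that of MAPKAPK5-AS1. The peak summits were 91, 75 and 43 bp from the middle of the motif, in that order.

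The next 5 windows belong to strong peaks whose window held TGACG, or its reverse complement CGTCA, but no full CRE. Capitals mark each such match. They were chosen for holding the short element and show where it lies, including 2 matches close together upstream of RNASEH1-AS1 and of ASB16-AS1. Other strong peaks overlapped a start window without it. The windows of SRP54-AS1, ADPGK-AS1 and TMEM161B-AS1, with peaks at 24.08-, 23.57- and 20.29-fold, held no TGACG. The ADPGK-AS1 peak overlapped only an edge of its window and did not cover the antisense start. Its summit was 952 bp from that start, so most of the sequence under this peak was not read.
RNASEH1-AS1, chr2:3558137-3558436, plus strand: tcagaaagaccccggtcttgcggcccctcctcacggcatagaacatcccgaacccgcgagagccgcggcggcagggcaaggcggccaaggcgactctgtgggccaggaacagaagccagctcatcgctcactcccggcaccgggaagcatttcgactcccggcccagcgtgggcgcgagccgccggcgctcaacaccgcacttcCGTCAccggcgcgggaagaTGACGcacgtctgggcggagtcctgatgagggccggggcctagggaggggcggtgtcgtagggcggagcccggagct
ASB16-AS1, chr17:44186668-44186967, minus strand: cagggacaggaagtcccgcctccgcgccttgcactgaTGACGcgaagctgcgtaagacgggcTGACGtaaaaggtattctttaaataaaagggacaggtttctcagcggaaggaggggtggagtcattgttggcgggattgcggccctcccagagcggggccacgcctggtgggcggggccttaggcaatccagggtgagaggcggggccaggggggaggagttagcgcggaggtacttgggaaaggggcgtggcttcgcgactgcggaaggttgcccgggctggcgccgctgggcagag
CEP83-AS1, chr12:94459753-94460052, plus strand: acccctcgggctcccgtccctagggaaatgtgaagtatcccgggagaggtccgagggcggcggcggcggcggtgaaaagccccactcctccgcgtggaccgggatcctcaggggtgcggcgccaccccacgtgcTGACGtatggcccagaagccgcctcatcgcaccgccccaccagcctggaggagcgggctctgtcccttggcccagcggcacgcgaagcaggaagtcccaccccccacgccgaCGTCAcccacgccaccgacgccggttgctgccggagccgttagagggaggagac
CYP51A1-AS1, chr7:92134313-92134612, plus strand: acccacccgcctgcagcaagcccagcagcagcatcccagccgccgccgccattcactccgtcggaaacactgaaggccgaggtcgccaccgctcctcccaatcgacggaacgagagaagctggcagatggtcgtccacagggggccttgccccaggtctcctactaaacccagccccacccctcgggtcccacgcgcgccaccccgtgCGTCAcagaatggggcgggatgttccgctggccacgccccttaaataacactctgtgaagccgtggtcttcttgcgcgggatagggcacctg
MAP3K14-AS1, chr17:45247675-45247974, plus strand: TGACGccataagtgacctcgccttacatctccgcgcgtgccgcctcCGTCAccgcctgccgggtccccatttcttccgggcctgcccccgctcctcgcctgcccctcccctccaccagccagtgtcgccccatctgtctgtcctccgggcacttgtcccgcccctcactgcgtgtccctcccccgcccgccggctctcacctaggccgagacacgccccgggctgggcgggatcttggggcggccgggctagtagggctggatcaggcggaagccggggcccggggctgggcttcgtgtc
In the RNASEH1-AS1 window the matches began 46 and 27 bases before the start, and the summit was 32 bp from the nearer one. CEP83-AS1 had matches beginning 116 and 4 bases before its start, with the summit 10 bp from the nearer. The summit was 41 bp from a match for MAP3K14-AS1, 135 bp for ASB16-AS1 and 249 bp for CYP51A1-AS1. A match describes the letters of the window and is not a measured binding site.

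Antisense peaks and the other listed peaks had similar fold enrichment at the median and the quartiles. The highest antisense value was below the highest of the others, but maxima over such unequal numbers of peaks are not comparable. Fold enrichment is the authors' ratio to a background that the sources used here do not specify. Among antisense peaks it ran from 3.07 to 29.79, with a median of 6.82 (interval 6.32 to 7.40) and quartiles of 5.19 and 9.94. The 14880 other peaks had a median of 6.97, quartiles of 5.20 and 9.76 and a maximum of 121.03. Antisense peaks were longer, with a median of 1748 bp (1596 to 1903) against 1548 bp, and had a higher median number of tags, 193.5 (164 to 237) against 161 (157 to 166), intervals that overlapped slightly. The lowest antisense peak held 18 tags and the highest 1339, beside 16 and 3300 among the other peaks. Length and tags rose together over the 184 peaks (Spearman's rho 0.81), whereas length and fold enrichment had a rho of -0.26 and tags and fold enrichment a rho of 0.03. These correlations are over peaks of 1 library, in which a longer peak has more room for tags.

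A fold enrichment of at least 10 was reached by 46 of the 184 antisense peaks (25%, 18.9 to 31.9%), beside 23.9% of all listed peaks. At least 20-fold was reached by 9 antisense peaks (4.89%), beside 5.08% of all listed peaks. The antisense shares were thus near the background of the table at both levels. Peaks assigned to other long non-coding RNA genes were less often at least 10-fold enriched, with 237 of 1477 (16.0%, 14.2 to 18%), and the intervals of these groups did not overlap. They were also shorter (median 1217 bp) and held fewer tags (median 66). In the 12144 peaks of protein-coding genes the share at least 10-fold was 25%, the same as for antisense genes, and the median tag number was 182.

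**Figure D1:**
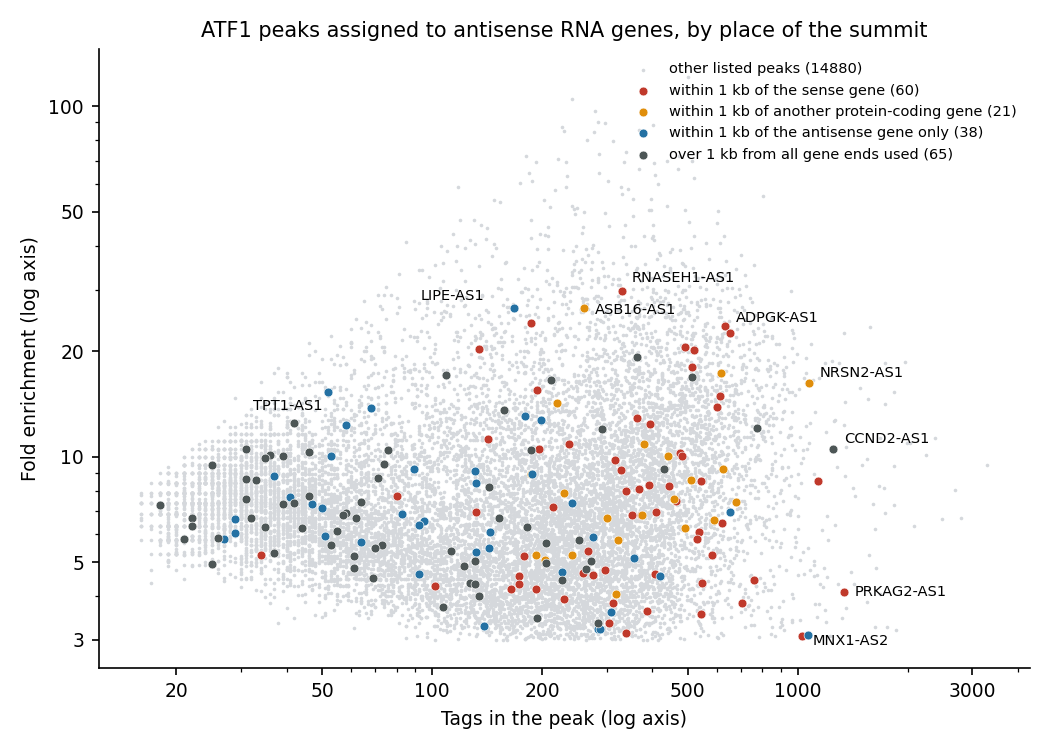
Fold enrichment against tags (log axes) of the antisense peaks, 1 point a peak, coloured by the place of the summit, with the 14880 other listed peaks as small grey points. The peak with the highest fold enrichment, RNASEH1-AS1 at 29.79, held 330 tags, while PRKAG2-AS1 held 1339 tags at 4.10-fold.

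The strongest antisense peak was that of RNASEH1-AS1 (chr2:3557646-3559060), at 29.79-fold with 330 tags (295 to 368). RNASEH1 encodes ribonuclease H1, which removes RNA from RNA-DNA hybrids. The summit lay 7 bp inside the antisense gene and 61 bp upstream of the RNASEH1 start, and the starts were 54 bp apart. SRP54-AS1 (24.08-fold, 187 tags, chr14:34982170-34983752) is the partner of a subunit of the signal recognition particle, and its summit lay 20 bp inside the antisense gene and 446 bp upstream of SRP54. ADPGK-AS1 (23.57-fold, 634 tags, chr15:72782837-72784432) is paired with the ADP-dependent glucokinase gene. Its summit lay 29 bp upstream of the ADPGK start and 952 bp inside the antisense gene.

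SSSCA1-AS1 (22.54-fold, 652 tags, chr11:65569389-65571926) is now named ZNRD2-DT, a divergent transcript, and its start lay 64 bp from that of ZNRD2. CEP83-AS1 (20.57-fold, 491 tags, chr12:94459121-94460953) starts 136 bp from CEP83, which encodes a centriole protein needed for cilia. CYP51A1-AS1 (20.17-fold, 520 tags, chr7:92133470-92135489) starts 86 bp from CYP51A1, the lanosterol demethylase of cholesterol synthesis. TMEM161B-AS1 (20.29-fold, chr5:88268320-88269435) held 134 tags, with its summit between starts 171 bp apart. MAPKAPK5-AS1 (18.04-fold, 513 tags, chr12:111841323-111843268) also had its summit between the starts, which were 298 bp apart. MAPKAPK5 encodes a kinase activated by MAP kinases. These 8 of the 12 strongest peaks had their summit within 1 kb of an end of the sense gene.

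Of the other 4, a pair lay at the end of another protein-coding gene. The summit of ASB16-AS1 (26.56-fold, 261 tags, chr17:44185993-44187831) was 51 bp upstream of its own start and 204 bp from an end of TMUB2. That of MAP3K14-AS1 (17.28-fold, 616 tags, chr17:45246292-45248858) was 161 bp upstream of its own start and 446 bp from an end of FMNL1, a formin that organises actin. LIPE-AS1 (26.51-fold, 168 tags, chr19:42396447-42397763) had its summit 77 bp upstream of its own start and 4443 bp from any protein-coding gene end. LIPE encodes hormone-sensitive lipase, an enzyme of fat breakdown that protein kinase A controls. The summit of LCMT1-AS1 (19.23-fold, 364 tags, chr16:25106178-25107841) lay 4413 bp inside the antisense gene, over 1 kb from the ends of that gene and of protein-coding genes. In all, the peak covered the annotated antisense start in 10 of these 12 genes.

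The peaks with the most tags were mostly other genes. PRKAG2-AS1 had 1339 tags (1268 to 1413) over 3953 bp at 4.10-fold, with the summit 367 bp upstream of PRKAG2, which encodes a regulatory subunit of AMP-activated protein kinase. CCND2-AS1, partner of the cyclin D2 gene, had 1250 tags over 7191 bp at 10.50-fold, with the summit 4340 bp from the nearest end of CCND2. The peak itself covered that end and the annotated start of CCND2-AS1. CIRBP-AS1 had 1136 tags over 6193 bp at 8.49-fold, with the summit 131 bp upstream of CIRBP, the gene of a cold-inducible RNA-binding protein. NRSN2-AS1 had 1075 tags at 16.24-fold, with the summit 130 bp upstream of its own start and 170 bp from an end of SOX12. CTBP1-AS had 1068 tags over 13916 bp, the longest antisense peak, at 3.09-fold. Low fold enrichment thus did not mean few tags: the 3 lowest, EPB41L4A-AS2 at 3.13-fold, CTBP1-AS and MNX1-AS2 at 3.07-fold, held 340, 1068 and 1028 tags.

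Antisense peaks lay close to protein-coding gene ends more often than those of other long non-coding RNA genes. A protein-coding gene began or ended within 1 kb of the summit for 81 of 184 (44%, 36.7 to 51.5%), against 17.4% (15.5 to 19.4%) for other long non-coding RNA genes and 63.8% (62.9 to 64.6%) for protein-coding genes. None of the 3 intervals overlapped. Antisense genes are named for a partner gene, so their difference from other long non-coding RNA genes cannot be told apart from the naming. The named sense gene could be found in RefSeq for 179 antisense genes and was protein-coding for 176. Its end lay within 1 kb of the summit for 60 of 184 (32.6%, 25.9 to 39.9%). The end of the antisense gene itself lay within 1 kb for 100 of 184 (54.3%, 46.9 to 61.7%). With strand taken into account, the summit was within 1 kb of the antisense start for 79 of the 145 genes with a window (54.5%, 46.0 to 62.8%), against 43.7% (40.7 to 46.7%) for other long non-coding RNA genes, with intervals that just overlapped.

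**Figure D2:**
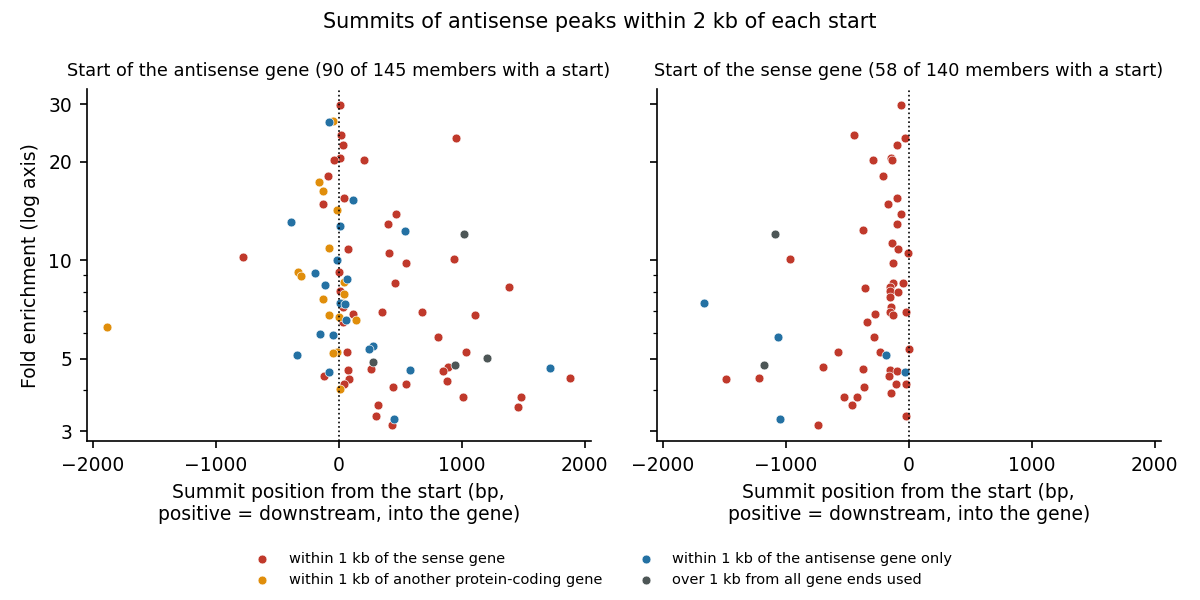
Fold enrichment (log axis) against the position of the summit from the start of the antisense gene (left) and of the sense gene (right), in bp, negative values being upstream and colours giving the place of the summit. Summits within 1 kb of a sense start were all upstream of it (51 of 51), whereas 25 of the 79 summits within 1 kb of an antisense start were upstream of that start.

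Summits leaned to the antisense side of shared promoters. All 51 summits within 1 kb of a sense start lay upstream of it, with a median position of -150 bp and a range of -970 to -1 bp. For peaks listed under protein-coding genes, 3866 of the 6495 summits within 1 kb of their own start were upstream (59.5%). Of the 79 summits within 1 kb of an antisense start, 25 were upstream and the others inside the antisense gene. The table gives each peak to 1 gene, so these positions cannot be told apart from the rule that assigned names, which is not stated. ChIP DNA carries no strand, so a peak between close starts belongs to both.

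Antisense and sense starts could be placed together for 125 pairs, and in all 125 the transcripts were on opposite strands. The starts were within 1 kb of each other in 66 pairs (52.8%, 43.7 to 61.8%). In 41 of these the transcripts ran apart from a gap of 9 to 621 bp (median 162 bp), and in 25 their first 73 to 981 bp overlapped (median 418 bp). In the 41 pairs with a gap, the summit was inside the antisense gene in 35, between the starts in 6 and inside the sense gene in 0. A single peak covered both starts in 46 of the 125 pairs (36.8%), of which 44 had starts within 1 kb.

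Peaks of close pairs had a higher median number of tags than those of distant pairs, with nearly the same median fold enrichment. The median was 291.5 tags (205 to 364) for the 66 close pairs and 180 tags (127 to 227) for the 59 others, with intervals that overlapped, and the median fold enrichment was 6.82 and 6.84. At least 10-fold enrichment was reached by 22 of 66 close pairs (33.3%, 22.2 to 46.0%) and by 11 of 59 others (18.6%, 9.69 to 30.9%), with overlapping intervals. Among distant pairs the summit was within 1 kb of the sense start in 5 of 59 (8.47%) and within 1 kb of the antisense start in 31 of 59 (52.5%). Only peaks listed under the antisense name were counted, and each peak was given to 1 gene. The difference between these shares therefore cannot be told apart from the rule that assigned names.

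The number of tags followed the place of the peak, while fold enrichment varied little with it. The 60 peaks at the sense gene had a median of 366.5 tags (305 to 464) and 6.95-fold, and 18 were at least 10-fold. The 21 peaks at the end of another protein-coding gene had 375 tags (242 to 510) and 7.59-fold, and 6 were at least 10-fold (28.6%). The 38 peaks at an end of the antisense gene alone had 131.5 tags (68 to 180) and 6.60-fold, and 7 were at least 10-fold (18.4%). The 65 peaks with the summit at none of these ends had 70 tags (55 to 122) and 6.69-fold, and 15 were at least 10-fold (23.1%). Place was set by the summit alone, and some of these 65 peaks covered such ends. Among them were the strong peaks of KMT2E-AS1 (12.04-fold) and CCND2-AS1. Of the 30 antisense peaks with under 50 tags, 1 was within 1 kb of a protein-coding gene end. The tag intervals of peaks at protein-coding gene ends did not overlap those of the other peaks.

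Strong peaks were also found with summits over 1 kb from the ends of the antisense gene, its sense gene and all protein-coding genes. Ends of other non-coding genes were not measured. ITGA9-AS1, partner of an integrin gene, had 515 tags at 16.85-fold and its summit lay 1299 bp from CTDSPL. ID2-AS1 had 211 tags at 16.56-fold, 2964 bp inside the antisense gene and 3159 bp upstream of ID2, which encodes an inhibitor of helix-loop-helix transcription factors. TPT1-AS1 had 42 tags (30.3 to 56.8) at 12.49-fold, 29788 bp inside the antisense gene. Among peaks at an antisense gene alone, ZSCAN16-AS1 had 52 tags (38.8 to 68.2) at 15.26-fold, 118 bp inside its start. OIP5-AS1, an abundant cytoplasmic long non-coding RNA also called cyrano, had 199 tags at 12.72-fold, 8 bp inside the RefSeq start.

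The deposited classes placed most antisense peaks in introns. Of the 184, 147 were intronic (79.9%, 73.4 to 85.4%), 24 upstream of the gene by up to 2 kb (13%), 11 downstream (5.98%) and 2 exonic (1.09%, 0.132 to 3.87%), the latter being COL4A2-AS2 and OSTM1-AS1. All listed peaks were 33.9% intronic and 43.5% exonic. Other long non-coding RNA genes had the same lean, with 70.3% intronic and 3.39% exonic. The class went against the RefSeq starts: of 18 antisense summits in the first 50 bp of the gene, 17 were classed intronic and 0 exonic (upper limit 18.5%), although the first bases of a gene belong to its first exon. Of 819 protein-coding summits in the same place, 761 were classed exonic (92.9%). The intronic class of an antisense peak was therefore not read as a position inside an intron.

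The sense gene had a peak of its own in the table for 117 of the 184 antisense genes (63.6%, 56.2 to 70.5%). The share of all protein-coding genes with a listed peak was not computed. The count therefore does not show that sense genes of antisense peaks are listed more often than other genes. No listed peak in the table overlapped any other, so none of these 117 pairs of peaks could overlap. The lack of overlap is therefore not a result about antisense genes. The antisense peak had the higher fold enrichment in 54 of 117 pairs (46.2%, 36.9 to 55.6%) and more tags in 58 (49.6%, 40.2 to 59.0%). Both intervals take in an even split between the genes of a pair.

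The place of the antisense peak separated the pairs by tags. Where the antisense peak lay at the sense gene's end, the sense gene had no peak of its own in 34 of 60 cases (56.7%). In the other 26, the sense gene's peak was over 1 kb from its ends in 24, the exceptions being PSMG3 and VAV3. In these 26 pairs the antisense peak had more tags in 23 (88.5%, 69.8 to 97.6%), with medians of 322 and 52 tags, but the higher fold enrichment in 10 (38.5%, 20.2 to 59.4%), with medians of 4.97 and 6.83. The pairs with fewer antisense tags were ARRDC3 (142 against 346), HOXA10 (178 against 441) and ADAMTSL4 (173 against 251). In the 91 pairs with the antisense peak elsewhere it had more tags in 35 (38.5%, 28.4 to 49.2%), with medians of 131 and 192. Since the table holds 1 peak a gene name, a promoter peak carried by the antisense name leaves the sense name with another peak or with none.

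**Figure D3:**
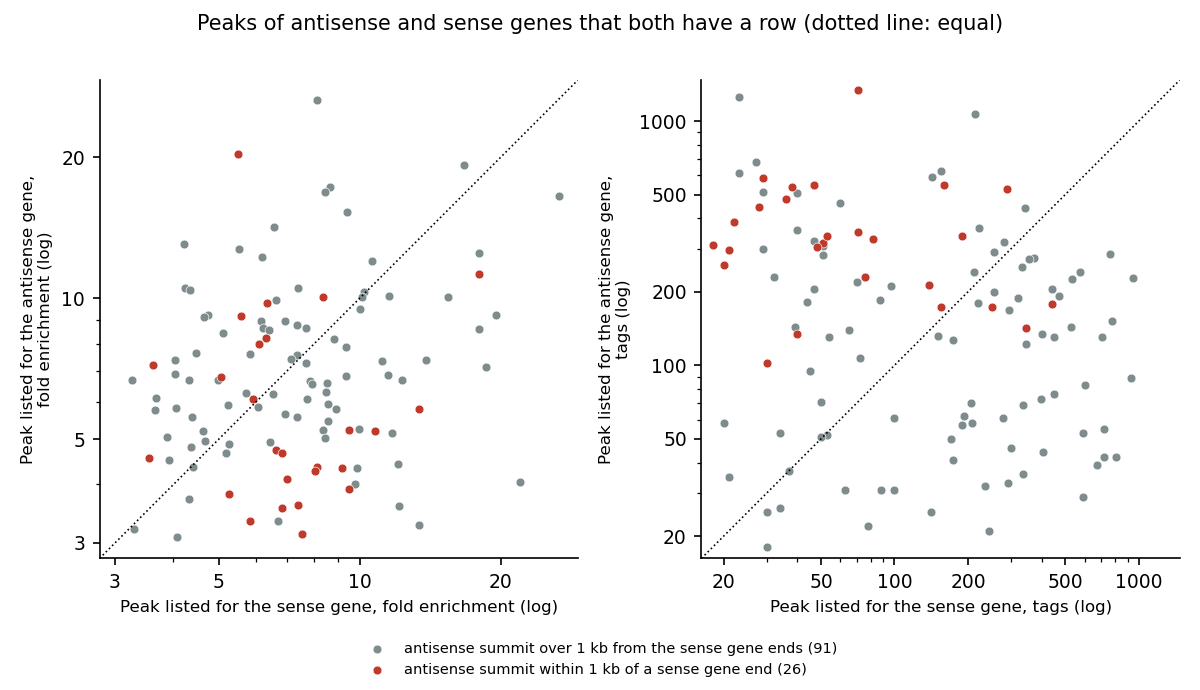
Fold enrichment (left) and tags (right) of the antisense peak against the peak of its sense gene, log axes, 1 point a pair, 117 pairs, with the dotted line marking equal values. The 26 pairs whose antisense peak lies within 1 kb of a sense gene end sit mostly above the line for tags (23 of 26) and mostly below it for fold enrichment (10 of 26 above).

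Pairs with the highest fold enrichment, ranked by the higher of the 2 genes, show both patterns. TMEM161B-AS1 was at 20.29-fold with 134 tags and TMEM161B at 5.50-fold with 40 tags, with summits 57355 bp apart. LIPE-AS1 was at 26.51-fold with 168 tags and LIPE at 8.11-fold with 294 tags. LCMT1-AS1 (19.23-fold, 364 tags) and LCMT1 (16.73-fold, 221 tags) were alike, although their summits were 4683 bp apart. LCMT1 encodes a methyltransferase that modifies protein phosphatase 2A.

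In the other pairs among the 8 strongest the sense gene had the higher fold enrichment, and that value placed them in the ranking. ID2 reached 26.60-fold with 97 tags, beside 16.56-fold and 211 tags for ID2-AS1 at a distance of 3123 bp. GCC2, a golgin gene, reached 22.05-fold with 280 tags and GCC2-AS1 4.04-fold with 319 tags. THUMPD3 was at 19.53-fold with 155 tags and THUMPD3-AS1 at 9.19-fold with 626 tags. DGUOK, the gene of mitochondrial deoxyguanosine kinase, was at 18.58-fold with 170 tags and DGUOK-AS1 at 7.14-fold with 50 tags. TPT1 was at 18.01-fold with 720 tags, and TPT1-AS1 had the 42 tags at 12.49-fold given above.

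Start windows of antisense genes held CRE letters at shares close to those of all windows. TGACGTCA occurred in 4 of 145 antisense windows (2.76%, 0.757 to 6.91%) and in 1.85% of all 35116 windows of the same length. TGACG, which every CRE contains, occurred in 43 of 145 (29.7%, 22.4 to 37.8%) and in 24.6% of all windows. The AP-1 element TGACTCA, or TGAGTCA, is bound by other basic leucine zipper factors and occurred in 5 of 145 (3.45%) and in 4.95% of all windows. The fourth CRE was in the window of GATA2-AS1, which its peak did not overlap. Among the 91 windows overlapped by a peak, TGACG occurred in 26 (28.6%, 19.6 to 39.0%), against 37.6% (36.5 to 38.8%) of 7102 such windows of other genes. The interval of the other genes lay inside that of the antisense genes.

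Within the antisense genes the letters went with fold enrichment. Among the 29 overlapped windows whose peak was at least 10-fold enriched, TGACG occurred in 15 (51.7%, 32.5 to 70.6%) and the CRE in 3 (10.3%, 2.19 to 27.4%). Among the 62 with weaker peaks, TGACG occurred in 11 (17.7%, 9.20 to 29.5%) and the CRE in 0 (upper limit 5.78%). The TGACG intervals did not overlap. Other genes showed the same order, with TGACG in 57.3% and the CRE in 9.44% of 2372 windows with strong peaks, against 27.8% and 0.867% of 4730 with weaker peaks. AP-1 letters occurred in 2 of the 29 and 3 of the 62 antisense windows. The windows nearest to the summit, of whichever gene, gave TGACG in 17 of 29 strong (58.6%) and 14 of 66 weaker (21.2%) antisense peaks. This split by strength was chosen after the values had been seen.

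**Figure D4:**
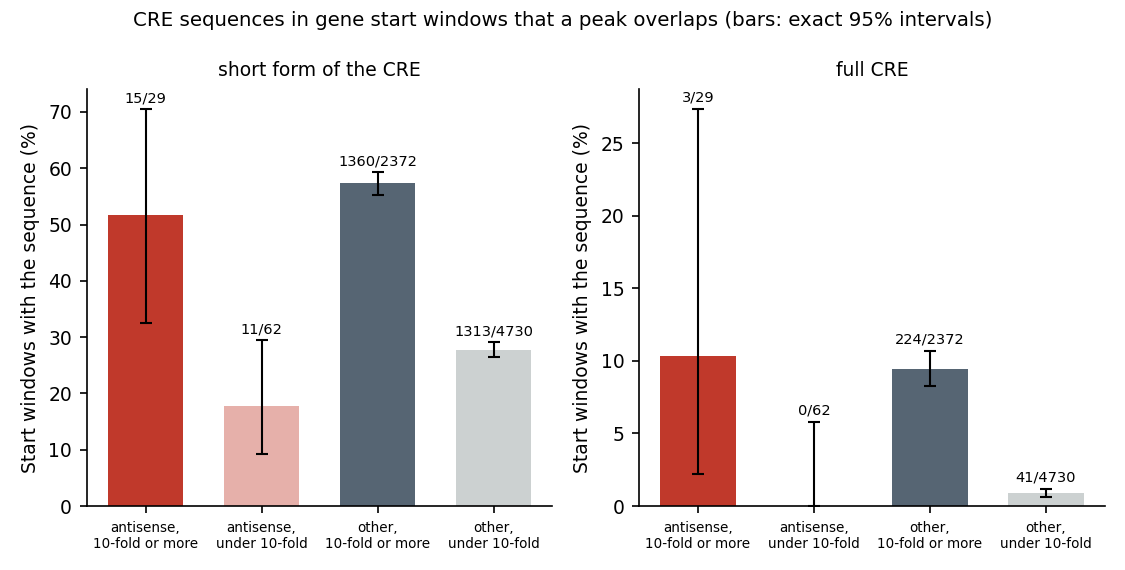
Share of start windows overlapped by a peak that hold TGACG (left, the short form) or the full CRE (right), in percent with exact 95% intervals and with counts above the bars. TGACG was found in 51.7% of antisense windows with peaks of at least 10-fold and in 17.7% of those with weaker peaks, and in 57.3% and 27.8% of the windows of other genes.

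Antisense partners of developmental transcription factors formed the largest family by name, with 25 members, and 0 of them reached 10-fold (upper limit 13.7%), beside 23.9% of all listed peaks. Their median was 5.47-fold, the same as the 5.47-fold median of the 196 peaks listed under the transcription factor genes themselves, of which 28 (14.3%) reached 10-fold. Their peaks were long, with a median of 2942 bp (1812 to 3600), beside 1748 bp for all antisense peaks and 2116 bp for the peaks of the transcription factor genes. The median of 226 tags was near the 227.5 of those genes. The strongest members were FOXC2-AS1 (9.53-fold, 74 tags), HOXA-AS3 (9.22-fold, 431 tags), HOXA11-AS (8.92-fold, 188 tags) and LHX5-AS1 (7.65-fold, 41 tags). The 7 members of the HOX clusters ran from 5.20- to 9.22-fold, and HOXB-AS3 had the third longest antisense peak at 7011 bp.

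The other families held 3 to 6 members, set by the start of the sense gene's symbol, so they miss genes of the same function and take in some of another. All counts at 10-fold below stand beside 23.9% of all listed peaks. Of 4 partners of kinase or phosphatase genes by name, 3 exceeded 10-fold: MAPKAPK5-AS1, MAP3K14-AS1 and STK4-AS1 (15.49-fold, 194 tags), the last starting 54 bp from STK4, a kinase of the Hippo pathway. The share was 24.0% for the 271 peaks of protein-coding genes of this family. The symbols of the kinase genes RPS6KA2 and MKNK1 fall outside it, and RPS6KA2-AS1 was at 12.27-fold and MKNK1-AS1 at 4.80-fold. The remaining member, CDKN2B-AS1, also known as ANRIL, was at 7.99-fold with 338 tags, with its summit 88 bp upstream of the start of CDKN2B, a cell cycle inhibitor. Of 6 partners of cell cycle, replication or repair genes, 3 reached 10-fold: CEP83-AS1, OIP5-AS1 and CCND2-AS1, beside 28.5% of the 221 protein-coding peaks of this family. Of 6 partners of GTPases and their regulators, 3 reached 10-fold: GNAS-AS1 (10.41-fold, 76 tags), RASSF8-AS1 (10.26-fold, 477 tags) and DOCK9-AS2 (10.07-fold, 482 tags), beside 22.1% of the 240 protein-coding peaks of this family. FGD5-AS1 followed at 8.56-fold with 510 tags, 41 bp inside its own start and 119 bp from an end of the nuclear receptor gene NR2C2.

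The symbol rule found 3 partners of cAMP and CREB signalling genes. It did not take in EP300-AS1 (5.90-fold, 276 tags), partner of the gene of the CREB coactivator p300. GNAS-AS1, partner of the gene of the stimulatory G protein subunit, was at 10.41-fold with its summit 22230 bp from GNAS. CRTC3-AS1, partner of a CREB coactivator gene, was at 5.78-fold with 253 tags, its summit 20294 bp from an end of CRTC3. PRKAG2-AS1 was at 4.10-fold, and its sense gene belongs to this group by the start of its symbol only. Among 5 zinc finger partners, ZSCAN16-AS1 and ZNF213-AS1 (12.02-fold, 291 tags) exceeded 10-fold and ZNF790-AS1 was at 8.78-fold with 37 tags. Among 6 transporter and channel partners SLC2A1-AS1, named for the glucose transporter GLUT1, reached 10.12-fold with 36 tags (25.2 to 49.8), and ATP6V0E2-AS1 and SLC25A25-AS1 were at 9.19- and 8.18-fold. Among 5 adhesion and matrix partners ITGA9-AS1 was at 16.85-fold, and MMP24-AS1, COL4A2-AS2 and ADAMTSL4-AS1 were at 7.87-, 5.87- and 4.55-fold. The fifth, LAMP5-AS1 at 3.47-fold, was taken in by its symbol alone, since LAMP5 encodes a lysosome-associated membrane protein.

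The list of 62 RNAs often studied in cancer included a microRNA host gene, whose name the antisense rule could not match. Of the 62 names, 18 were among the antisense peaks. Of these 18, 2 reached 10-fold, OIP5-AS1 and GNAS-AS1, beside 25% of all antisense peaks and 23.9% of all listed peaks. The 18 had a median of 5.65-fold and 226.5 tags, and 4 had their summit at the sense gene. One of these 4 was TMPO-AS1 (6.93-fold, 409 tags), with its summit 20 bp upstream of TMPO, the gene of the nuclear protein thymopoietin.

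**Figure D5:**
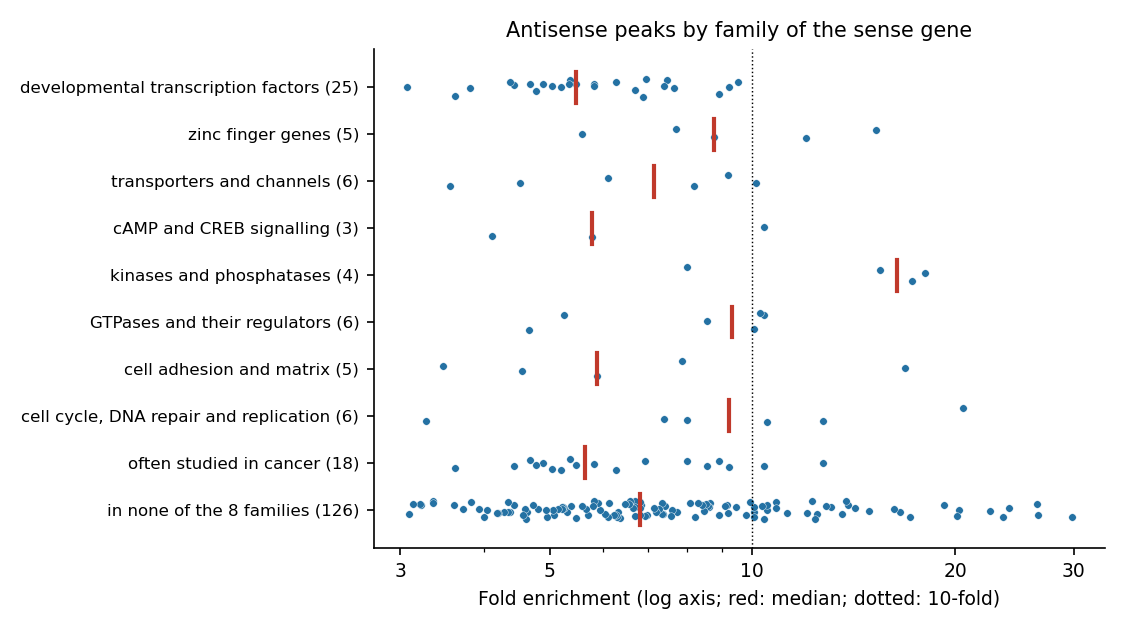
Fold enrichment (log axis) of the antisense peaks by family of the sense gene, for the cancer list and for genes in no family, 1 point a peak, with the median in red and 10-fold dotted. All 25 partners of developmental transcription factors are under 10-fold, while 3 of 4 kinase and phosphatase partners are above it.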

How the data were processed

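Per the labels' protocols, HCT116 chromatin was fixed with 1% formaldehyde, sheared to 200 to 400 bp and precipitated for Flag-ATF1. CASAVA, Bowtie2 and bedtools were used with hg38, per the submitters' processing notes. Caller, control, settings and annotation of the peaks were not given in the sources used here. The deposited table holds, per the file headers, whole-number tag counts for each peak, a score (lowest value 50), fold enrichment (a ratio, lowest value 3), positions, assigned gene and class. These are the authors' own values for 1 library. 1 line without a position was left out.

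Distances were measured from the summit to outermost gene ends in RefSeq (GRCh38.p14) and to 1 start a gene with strand, so an end and a start of a gene can differ. The sense gene is the symbol before -AS. Members and lists were chosen with earlier results of these data known. Genes named were the 12 highest by fold enrichment, the 5 with most tags, the 3 longest, the 3 lowest by fold enrichment, up to 4 of each family of sense genes, up to 8 of the cancer list and the 8 strongest pairs. Others are named as exceptions or examples, chosen after their values were seen. Not every gene of the rule is reported. Families were set by the start of the symbol. With 1 library there was no test. The counting steps were tested on simulated data. Alternatives changed the peak threshold, window, choice of members and motif windows. Tools were Python 3.11.15, numpy 2.4.6, pandas 2.3.3, scipy 1.17.1 and matplotlib 3.10.9.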

Additional observations from a re-analysis of the deposited data

How the results depend on the processing

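Of 92 values recomputed under 13 settings, 66 stayed within the interval of the reported value or, for the member count of a family, within 1.5 times that count, and 26 did not. Keeping peaks of at least 5-fold gave medians of 1590 bp, a score of 256.82 and 7.81-fold, 48.6% with a sense gene listed and 3 adhesion and matrix members. At least 10-fold gave 0% exonic, 71.7% intronic and 21.7% upstream peaks, a median score of 766.81 and 13.3-fold, 52.2% at protein-coding gene ends, 63.0% at own gene ends, and CRE and TGACG in 7.89% and 47.4% of windows. At least 50 tags gave medians of 1929 bp, 242 tags and a score of 263.86, with 51.9% at protein-coding gene ends and 44.8% with a sense gene listed. A threshold selects on the measure itself. It was also applied to the peaks of sense genes, so those below it no longer counted as listed. For the other values the cause was not tested. Counting at least 20-fold as strong gave 4.89%. A 500 bp window gave 40.8% at own gene ends, and a 5 kb window gave 68.5% at protein-coding, 78.8% at own and 51.6% at sense gene ends. Measuring from the nearest edge of the peak in place of its summit, still within 1 kb, gave 52.7% at protein-coding and 69.6% at own gene ends. Wider windows take in more peaks.

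The windows nearest to the summit and the strand-aware starts were added after seeing the data. No paired analysis was possible because the ChIP group holds 1 library, and there was no replicate to leave out. Depth is unknown, the input was not analysed here, and no value can be separated from variation between libraries.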

Other observations

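Antisense peaks were spread over the chromosomes with a listed peak, from 1 on chromosome 21 to 14 each on chromosomes 3 and 7. As a share of listed peaks they ranged from 0.510% on chromosome X to 1.93% on chromosome 7. The antisense start windows were rich in G and C, with a median of 64.7% and 23 CpG dinucleotides in 300 bases, beside 58.7% and 14 over all RefSeq windows. Windows of other long non-coding RNA genes with a peak in the table had 58.7% and 11 CpG, and those of protein-coding genes 66.0% and 27.

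The current RefSeq symbol was the deposited name for 152 of the 184 genes, and 22 now carry a name ending in -DT, for divergent transcript (12%, 7.65 to 17.5%), among them RNASEH1-DT and ZNRD2-DT. The gene description deposited with the peaks, not the RefSeq one, calls 38 of the 184 head to head. Of these 38, 17 had the summit within 1 kb of a sense gene end (44.7%, 28.6 to 61.7%), against 43 of the other 146 (29.5%, 22.2 to 37.6%), with overlapping intervals. The summit lay inside the body of some protein-coding gene for 27 of 184 antisense peaks (14.7%) and for 11.5% of the peaks of other long non-coding RNA genes, and inside the named sense gene for 11.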
